A study of Mus musculus with 8 samples.

Results

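The D-type cyclins and the kinases they activate are 5 genes: Ccnd1, Ccnd2 and Ccnd3, which encode cyclins D1, D2 and D3, and Cdk4 and Cdk6, which encode the cyclin-dependent kinases CDK4 and CDK6. They were taken by symbol, as this family and no other, from the 11854 named entries of a table of RNA levels. All 5 were present, and all 5 passed the filter on low values. The family was chosen by known values of these same libraries, the differences in its members' normalised reads between the genotypes, so those differences are described here without a test. Tests are given for the ratios between paralogs within a library and for the other genes of the pathway. The pathway lists were also chosen with earlier results of these data known, so their tests carry that limit.

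Haematopoietic stem cells (HSCs) are the rare bone marrow cells from which all blood lineages are renewed. They were sorted from bone marrow of C57BL/6 mice, 4 wild type and 4 Nupr1-/-, and the polyadenylated RNA of each mouse gave 1 library. Nupr1 encodes a small stress-induced chromatin protein, and the series title concerns HSC quiescence and p53 signalling. No treatment was named, and the age and sex of the mice, the sorting markers and the deleted part of Nupr1 are not given in the sources used here.

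A D-type cyclin has no kinase activity of its own. It binds CDK4 or CDK6, and the complex phosphorylates the retinoblastoma protein RB, which then releases the E2F transcription factors that switch on genes of DNA replication. D-type cyclins are made in response to growth signals and are short-lived, so they tie entry into the cell cycle to signals from outside. INK4 proteins hold CDK4 and CDK6 inactive, and CIP/KIP proteins bind the cyclin-kinase complexes. In blood formation the family members can partly stand in for each other, and a low CDK6 level is a known feature of dormant human HSCs.

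The paralogs resemble each other in sequence, so the stretches that could be confused between them were looked for first. Coding sequences aligned with 71.3% identity for Ccnd2 and Ccnd1, 66.7% for Ccnd3 and Ccnd1, 68.9% for Ccnd2 and Ccnd3, and 68.7% for Cdk4 and Cdk6. The longest exact coding stretches shared by a cyclin pair and by the kinase pair, from the GENCODE M21 transcripts, are shown because they bound how far one paralog's reads could pass for the other's. Capitals mark the shared bases, which are the whole of each line:
Ccnd2 and Ccnd1: TTCAAGTGCGTGCAGAAGGA
Cdk4 and Cdk6: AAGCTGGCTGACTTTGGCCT
Each is 20 bases long. The cyclin stretch covers coding bases 127 to 146 of Ccnd2 and 133 to 152 of Ccnd1, and the kinase stretch covers coding bases 463 to 482 of Cdk4 and 478 to 497 of Cdk6, counted from 1 at the first base of the start codon. A read longer than that, without mismatches, belongs to 1 paralog of the pair. The pseudogene Ccnd3-ps is closer to its parent, with 96.5% identity over 876 coding bases of Ccnd3, and Gm7158 has 90.5% identity over 887 bases of Cdk4. Neither pseudogene is among the named entries. How reads of Ccnd3 and Cdk4 that also match a pseudogene were counted depends on settings that are not given in the sources used here.

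Promoter windows of 250 bases before a RefSeq start were matched by symbol for 3 of the 5 genes, Ccnd3, Cdk4 and Cdk6, on GRCm38.p6. The Cdk6 window and the second of the Ccnd3 windows lie inside the GENCODE bounds of their genes given with the levels, downstream of the first annotated start. Both kinase windows hold the E-box CACGTG, the letters bound by factors of the MYC and MAX family, and they are shown for that reason. Capitals mark the E-box, and both lines are on the plus strand. The Cdk4 line is chr10:127063285-127063533, and the Cdk6 line is chr5:3343643-3343731, the part of its window upstream of an annotated exon:
Cdk4: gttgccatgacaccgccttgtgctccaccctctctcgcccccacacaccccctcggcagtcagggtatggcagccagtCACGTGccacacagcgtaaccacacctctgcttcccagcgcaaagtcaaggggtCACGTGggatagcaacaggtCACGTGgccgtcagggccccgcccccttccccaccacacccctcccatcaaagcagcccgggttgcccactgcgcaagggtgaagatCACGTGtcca
Cdk6: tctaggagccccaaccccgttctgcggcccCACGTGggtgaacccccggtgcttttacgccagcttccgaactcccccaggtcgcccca
The Cdk4 line holds 4 E-boxes, and the Cdk6 line holds 1. Both Ccnd3 windows hold 0. Among 32851 RefSeq windows of the same length, 6.02% had at least 1 E-box and 0.0609% had 3 or more. The E-box reads the same on both strands. The E2F letters TTTCGCGC or TTTGGCGC, searched on both strands, were in none of the windows of the 3 genes and in 0.654% of all windows. Also searched were the GC box GGGCGG and the CRE TGACGTCA. The GC box was found 2 times and 1 time in the Ccnd3 windows, 1 time in the Cdk4 window and 0 times in the Cdk6 window. Of all windows 32.7% held it. The CRE was in none of the windows of the 3 genes and in 1.55% of all windows. These are letter matches only, since no binding was measured.

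The recovered reads numbered 2296101 to 4769401 per library. Several features of the libraries run alongside the genotype labels. Nupr1 itself averaged 246 ± 80.2 normalised reads in wild type and 168 ± 34.96 in libraries labelled knockout (SD, n = 4 each), the groups overlapped, and the log2 difference of -0.50 did not pass (limma adjusted p = 0.433). The targeted gene thus does not separate the groups, so they are called libraries labelled knockout throughout. Trp53, the gene of p53, fell from 548 ± 74.99 to 99.4 ± 28.2 (limma adjusted p = 0.00155). Xist, made from the inactive X chromosome, lay at 0 to 11.8 normalised reads in wild type and 107 to 159 in libraries labelled knockout, and sex and genotype cannot be told apart. Across genes, level correlated with GC content at Spearman -0.303 to -0.138 in wild type and 0.150 to 0.301 in libraries labelled knockout. Wild type library 2 stood apart on the first principal component, at 127 against -36.9 to -0.812 for the others. All 12 HSC markers were present and 0 of them passed the test. Their summed levels were 8127 to 10665 normalised reads in wild type and 7469 to 9752 in libraries labelled knockout. Of the 12 differences 6 were above 0 and 6 below, with a median of 0.03. At an unadjusted limma p under 0.05 there were 3, all lower in libraries labelled knockout, beside 2160 of 10989 over all genes.

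Ccnd1 was about 3.7 times lower in the libraries labelled knockout and was the sole member whose groups did not overlap. Cyclin D1 is the family member most directly induced by growth factor signalling. The gene (ENSMUSG00000070348.5) lies on mm10 chromosome 7, bases 144929931 to 144939925, on the minus strand. Wild type mice 1 to 4 had 238.1, 183.3, 191.4 and 194.2 normalised reads of Ccnd1, where a normalised read is a read divided by the library's size factor. In mice 1 to 4 labelled knockout it was at 88.96, 28.7, 46.8 and 66.7. Each library labelled knockout was below each wild type library.

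The mean Ccnd1 level went from 202 ± 24.7 to 57.8 ± 25.9 normalised reads (SD, n = 4 each), a log2 difference of -1.90 ± 0.43 (SE), or 3.72-fold lower on that scale. The wild type mice were close together, with a coefficient of variation of 12.2%, against 44.9% in the mice labelled knockout. Counting alone would give 6.60% and 15.2%, so both groups varied more than read sampling, which rested on 23 to 342 reads a library. In sorted cells a lower level per library does not tell fewer expressing cells from less RNA per cell.

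Of the annotated exon bases of Ccnd1, 1100 of 4709 (23.4%) also lie in Lto1 on the other strand, and the library kit does not mark strand. Lto1, listed as Oraov1, had 258 ± 105 and 223 ± 73.3 normalised reads, a log2 difference of -0.17 (limma adjusted p = 0.834). Reads of the 2 genes in the shared bases cannot be told apart.

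Ccnd2 showed no group difference beyond its spread. Cyclin D2 is the D-type cyclin often linked to cytokine signalling in blood cells. The gene (ENSMUSG00000000184.12) lies on chromosome 6, bases 127125162 to 127152193, on the minus strand. In wild type, libraries 1 to 4 had 3005, 2246, 1428 and 1669 normalised reads of Ccnd2, and the libraries labelled knockout had 1769, 2408, 2285 and 1634. The groups overlapped widely, with all 4 values labelled knockout inside the wild type range.

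The mean Ccnd2 level was 2087 ± 702 in wild type and 2024 ± 379.6 normalised reads in libraries labelled knockout, a log2 difference of -0.0040 ± 0.21 (SE). Its wild type coefficient of variation was 33.6%, where counting alone gives 2.13%. Relative to their means, the wild type mice differed more in Ccnd2 than in Ccnd1. Antisense transcripts share 740 of its exon bases.

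Ccnd3 varied least of the 5 over the 8 libraries. Cyclin D3 is the D-type cyclin with known roles in lymphoid and erythroid precursors. The gene (ENSMUSG00000034165.16) lies on chromosome 17, bases 47505051 to 47599691, on the plus strand. Ccnd3 stood at 1416, 1740, 1551 and 1996 normalised reads in wild type mice 1 to 4, against 1840, 1641, 1733 and 1852 in mice labelled knockout. Again all values labelled knockout lay inside the wild type range.

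The mean Ccnd3 level was 1676 ± 251 and 1766 ± 99.4 normalised reads (SD, n = 4 each), a log2 difference of 0.09 ± 0.17 (SE). The coefficient of variation was 15.0% in wild type and 5.63% in libraries labelled knockout, the lowest of the 5 genes there. Bysl, on the other strand, shares 361 of its exon bases.

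Cdk4 had the highest mean of the 5 per kilobase of annotated exon in both groups, a rank that did not hold with coding length, and its groups overlapped. CDK4 is the D-type cyclin partner present in most dividing cells. The gene (ENSMUSG00000006728.12) lies on chromosome 10, bases 127063534 to 127067920, on the plus strand. Wild type mice 1 to 4 had 982, 1950, 1656 and 1451 normalised reads of Cdk4, against 2096, 1951, 1764 and 2296 in mice labelled knockout. In 3 of 4 libraries labelled knockout it was above each wild type value, and wild type library 2 lay within their range.

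The mean Cdk4 level was 1510 ± 407 in wild type and 2027 ± 225 normalised reads in libraries labelled knockout, a log2 difference of 0.46 ± 0.20 (SE). Under the 15 alternatives that difference ran from 0.19, with the GC and length trends removed, to 0.60, without wild type library 2. Without wild type library 1 it was 0.27. Wild type library 1 had the lowest Cdk4 and the highest Ccnd1 and Ccnd2 of its group. Tspan31, on the other strand, shares 641 of the exon bases of Cdk4 (19.7%) and had 113 ± 74.6 and 210 ± 86.1 normalised reads, with a log2 difference of 1.07 that did not pass (limma adjusted p = 0.222).

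Cdk6 was about 3.3 times higher in the libraries labelled knockout, with 1 wild type library among them. The gene (ENSMUSG00000040274.11) lies on chromosome 5, bases 3341485 to 3531008, on the plus strand. Wild type mice 1 to 4 had 56.4, 339, 110.7 and 92.2 normalised reads of Cdk6. In mice 1 to 4 labelled knockout it was at 447.7, 226.9, 511.6 and 461.1. Wild type library 2, the library that stood apart over all genes, was above the lowest of the libraries labelled knockout, and the other 3 wild type libraries were below all of them.

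The mean Cdk6 level went from 149.6 ± 128 to 412 ± 126 normalised reads (SD, n = 4 each), a log2 difference of 1.72 ± 0.44 (SE), or 3.30-fold higher on that scale. Without wild type library 2 the log2 difference was 2.23. The wild type coefficient of variation was 85.8%, where counting alone gives 9.01%. By this measure Cdk6 was the most variable of the 5 among wild type mice. That spread rested on wild type library 2, at 339 normalised reads against 56.4 to 110.7 in the rest of the group. An antisense transcript shares 368 of its exon bases.

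**Figure D1:**
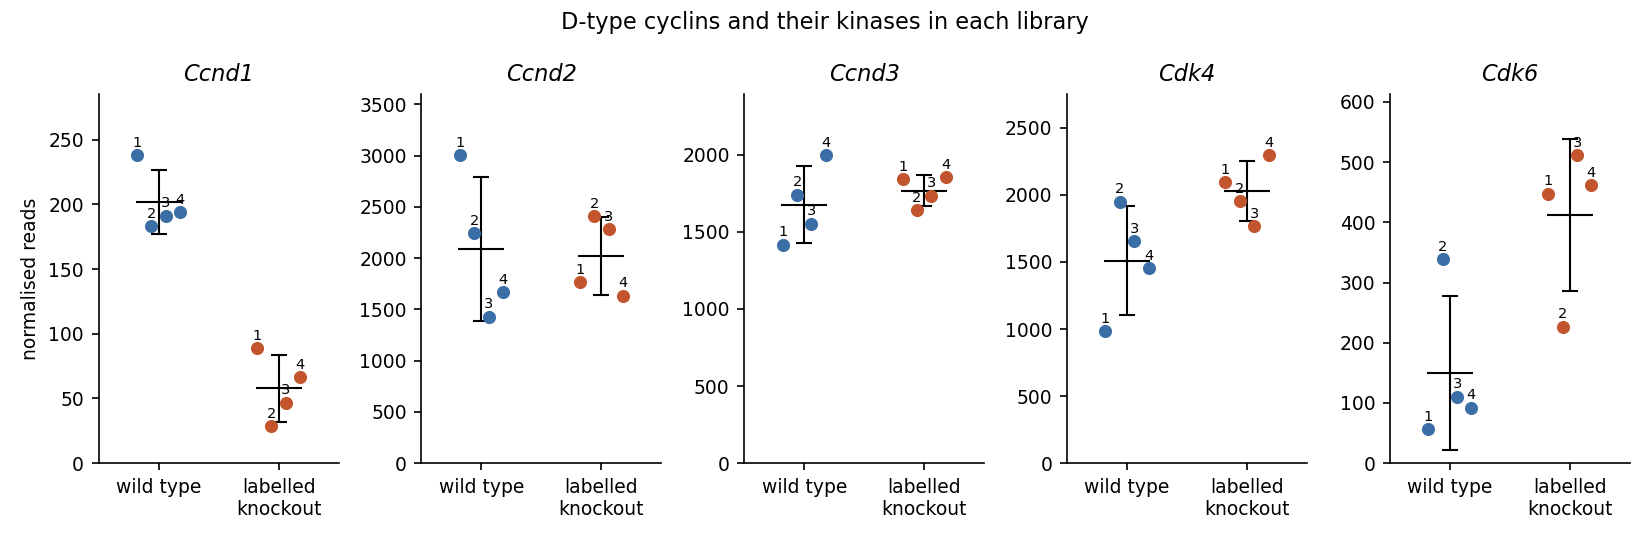
Normalised reads of each gene (vertical axes, each from 0) in the 4 wild type libraries and the 4 libraries labelled knockout, with the library number above each point, and the mean and SD as bars. Ccnd1 groups do not overlap (183.3 to 238.1 against 28.7 to 88.96), and wild type library 2 is the high wild type point for Cdk6, at 339.

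Ccnd1 and Cdk6, 2 of the 5 genes, passed an adjusted p under 0.05 in the limma fit across 10989 genes, where 3.8% of all genes passed. The contrast was known when the family was picked, so nothing is read from that count. Over all genes 11.7% had groups that did not overlap. Ccnd1 passed in 3 of 8 fits that left out 1 library and Cdk6 in 1 of 8, the one without wild type library 2. In the fits without each library the log2 difference of Ccnd1 was -2.14 to -1.61 and that of Cdk6 was 1.37 to 2.23. With the GC and length trends removed, the log2 difference was -2.04 for Ccnd1 and 1.92 for Cdk6, both as large as before, though Cdk6 did not pass there, with edgeR or with a replicate block.

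**Figure D2:**
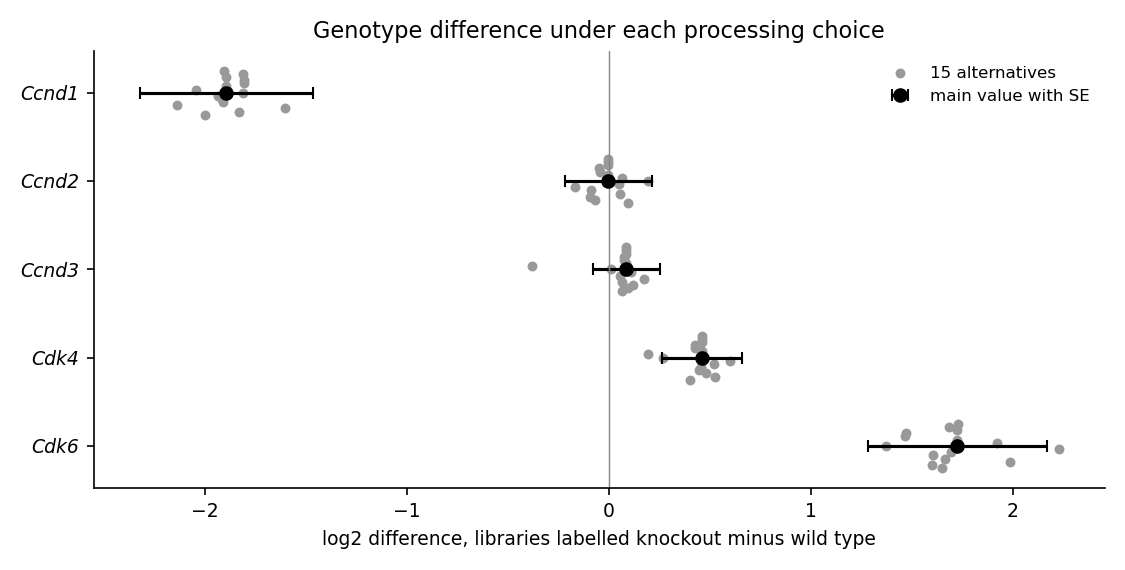
Log2 difference of each gene, libraries labelled knockout minus wild type (horizontal axis), as reported with its SE (black) and under 15 alternative processing choices (grey). All values of Ccnd1 lie between -2.14 and -1.61 and those of Cdk6 between 1.37 and 2.23, while Ccnd2 and Ccnd3 have values on both sides of 0.

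Dividing by length allows levels of different genes to be set side by side. Per kilobase of annotated exon, wild type means were 465 normalised reads for Cdk4, 222 for Ccnd2, 191 for Ccnd3, 42.8 for Ccnd1 and 10.7 for Cdk6. In libraries labelled knockout they were 624, 215, 201, 12.3 and 29.4. Ccnd1 was above Cdk6 in 4 of 4 wild type libraries and below it in 4 of 4 libraries labelled knockout. This swap of the lowest ranks follows from the genotype differences above and is not a separate result. With coding length in place of exon length, Ccnd1 was above Cdk6 in 3 of 4 wild type libraries. Cdk4 was above Ccnd2 in 7 of 8 libraries and above Ccnd3 in 8 of 8 per exon length, but in 3 of 8 and 5 of 8 per coding length.

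Among 10888 genes with a length, Cdk4 per length was above 97.1% of genes in wild type and 98.0% in libraries labelled knockout. Ccnd2 was above 92.8% and 92.4%, and Ccnd3 above 91.4% and 91.7%. Ccnd1 was above 60.9% and 26.3%, and Cdk6 above 21.3% and 50.2%. So Cdk4, Ccnd2 and Ccnd3 ranked high in both groups, whereas Ccnd1 and Cdk6 ranked in the middle or below.

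**Figure D3:**
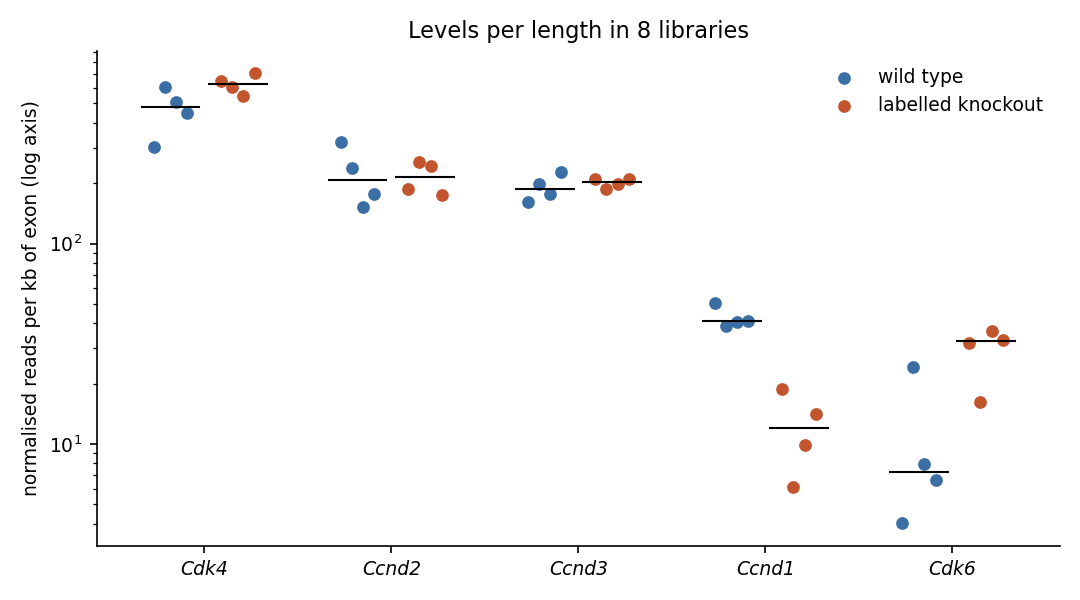
Normalised reads per kilobase of annotated exon (log axis) for the 5 genes in each library, with group medians as lines. Cdk4 lies highest except in wild type library 1, where Ccnd2 is above it, Ccnd2 and Ccnd3 intermix, and the lowest gene is Cdk6 in wild type and Ccnd1 in the libraries labelled knockout.

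The ratio of 2 paralogs within a library needs no scaling between libraries. It was tested over the 8 mice for 4 pairs, with an exact two-sided permutation test that flips the sign of each library's log2 ratio. Ccnd2 exceeded Ccnd1 in 8 of 8 libraries, with a mean log2 ratio per length of 3.26 ± 1.21 (SD), or 9.58-fold (exact p = 0.00781, the smallest that 8 libraries allow, adjusted 0.0104). The ratio was 19.5-fold with coding length, 19.1-fold with no division by length, and, per exon length, 4.97-fold in wild type and 18.4-fold in libraries labelled knockout. Ccnd3 exceeded Ccnd1 in 8 of 8, by 3.14 ± 1.15, or 8.79-fold (exact p = 0.00781, adjusted 0.0104). That ratio was 16.6-fold with coding length and 16.4-fold with no division by length. Per exon length it was 4.42-fold in wild type and 17.5-fold in libraries labelled knockout. The cyclin D mRNA in these cells was therefore mostly of D2 and D3.

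Ccnd2 and Ccnd3 could not be ordered: each was higher in 4 of 8 libraries, with a mean log2 ratio of 0.12 ± 0.46 (exact p = 0.516, adjusted 0.516). When the length of the longest transcript was used instead, Ccnd3 was higher in 7 of 8 libraries and the mean was -0.49 (exact p = 0.0391, adjusted 0.0391). The order of these 2 genes thus depends on the length taken.

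Cdk4 exceeded Cdk6 in 8 of 8 libraries, with a mean log2 ratio of 5.09 ± 0.90, or 34.1-fold (exact p = 0.00781, adjusted 0.0104). Part of that size comes from length, since the annotated exons of Cdk6 span 13989 bases and those of Cdk4 3249. With coding length the ratio was 8.53-fold, and with no division by length it was 7.93-fold, higher in 8 of 8 in each case.

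Seen as shares of reads, the cyclin pool differed between the groups at its smallest part. Ccnd1 made up 5.11%, 4.40%, 6.04% and 5.03% of D-type cyclin reads in wild type mice 1 to 4, against 2.41%, 0.703%, 1.15% and 1.88% in mice labelled knockout. The lowest wild type share had a Wilson 95% interval of 3.82% to 5.06%, and the highest share labelled knockout one of 1.88% to 3.08%, both for counting error only. Group means were 5.14% ± 0.676 and 1.53% ± 0.755 (SD, n = 4 each). The pool as a whole had 3965 ± 624 and 3848 ± 264 normalised reads, with Ccnd2 and Ccnd3 holding the rest.

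Cdk6 made up 5.43%, 14.8%, 6.26% and 5.97% of the reads of the 2 kinases in wild type mice 1 to 4, against 17.6%, 10.4%, 22.5% and 16.7% in mice labelled knockout. Wild type library 2 was again within the other group's range. Group means were 8.12% ± 4.47 and 16.8% ± 4.95 (SD, n = 4 each). The kinase pool had 1659 ± 519 and 2439 ± 263 normalised reads. These shares restate the genotype contrast of the same reads and are given without a test.

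**Figure D4:**
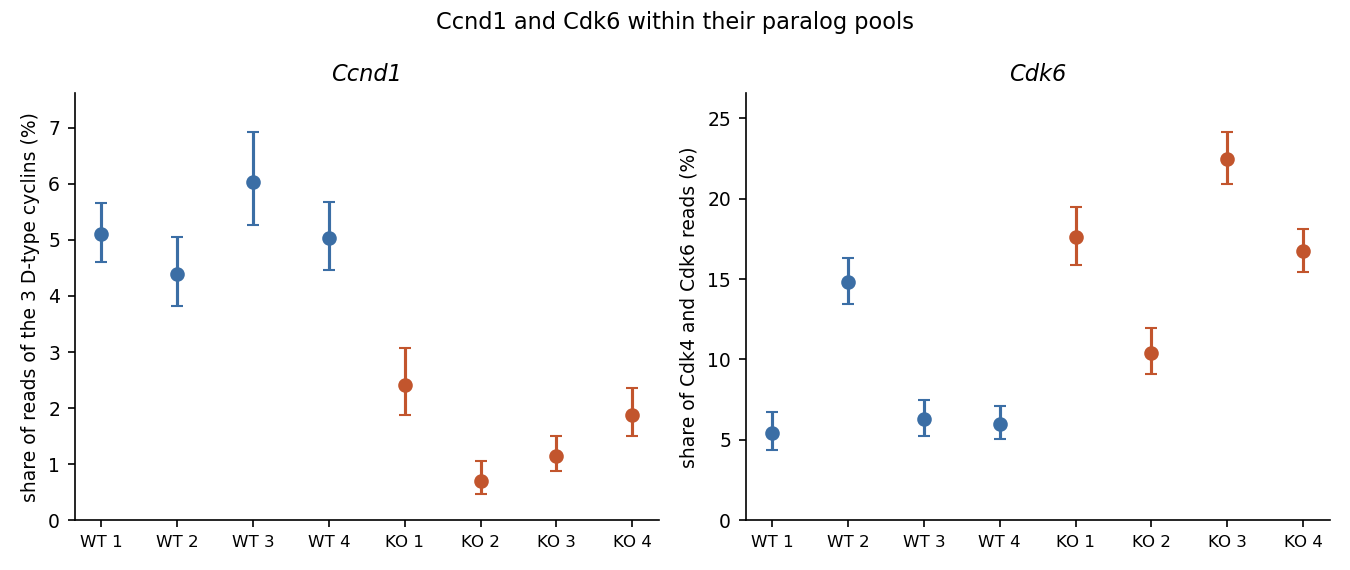
Share of Ccnd1 among reads of the 3 D-type cyclins (left, percent) and of Cdk6 among reads of both kinases (right, percent) in each library, WT for wild type and KO for labelled knockout, with Wilson 95% intervals for counting error. Ccnd1 shares are 4.40% to 6.04% in wild type and 0.703% to 2.41% in the others, and for Cdk6 wild type library 2, at 14.8%, lies among the libraries labelled knockout.

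The pathway around the 5 genes was described by 7 lists holding 124 other tested genes. These lists were chosen with earlier results of these data known, which limits what their tests and counts can show. Of the 124 genes 3 passed the limma test, all higher in the libraries labelled knockout. Over all genes 1.68% passed as higher and 2.12% as lower, and the median log2 difference was 0.03. None of the 7 lists had more than 1 gene past the test. Without adjustment, 2160 of 10989 genes had a limma p under 0.05. That is the share to set beside the unadjusted counts of the lists below.

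Among the inhibitors, 5 of 7 genes were tested, and 0 passed in either direction, with a median log2 difference of -0.39. Cdkn2d, which encodes the INK4 protein p19, averaged 385 ± 122 and 567 ± 105 normalised reads (log2 difference 0.61, limma adjusted p = 0.223). Cdkn1c, which encodes the CIP/KIP protein p57 known from quiescent HSCs, averaged 174 ± 31.0 and 129 ± 55.9 (log2 difference -0.54, limma adjusted p = 0.482). With the limma test, 1 of these 5 had an unadjusted p under 0.05.

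Of the RB family and the E2F and DP factors, 1 of 13 rose and 0 fell, with a median of 0.01. With the limma test 2 had an unadjusted p under 0.05. E2f1, the activating factor held by RB, rose from 76.7 ± 46.3 to 237 ± 55.3 normalised reads (log2 difference 1.74, limma adjusted p = 0.0305). It lay at 43.1 to 145 in wild type and 162 to 292 in libraries labelled knockout, so the groups did not overlap. E2f6, a repressor of the family, had a log2 difference of -0.80 (limma adjusted p = 0.155).

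The E2F target genes, which serve DNA replication, had 1 of 30 risen and 0 fallen, and 7 at an unadjusted limma p under 0.05. Of the 30 differences 27 were above 0, against 5640 of 10989 over all genes, and the median was 0.43. The 1 that passed was Dnmt1, the maintenance DNA methyltransferase, which rose from 727 ± 215 to 1446 ± 353 normalised reads (log2 difference 1.0, limma adjusted p = 0.0234). Mcm5, a subunit of the replicative helicase, had a log2 difference of 0.83 that did not pass (limma adjusted p = 0.0582). The count of 27 comes from the same 8 mice for each gene and was given no test.

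Cyclins and kinases of S phase entry and mitosis had 0 of 16 past the limma test (1 at an unadjusted p under 0.05), with a median of 0.23. Pkmyt1, an inhibitory kinase of CDK1, had a log2 difference of 1.22 (limma adjusted p = 0.123), and Ccnf, which encodes the F-box protein cyclin F, one of 1.47 (limma adjusted p = 0.264). The summed level of 10 markers of cycling cells was 566 to 2633 normalised reads in wild type and 1140 to 3472 in libraries labelled knockout. With the limma test 0 of 10 passed and 1 had an unadjusted p under 0.05. Of the 10 differences 8 were above 0 and 2 below, with a median of 0.21. The ranges of the summed level overlap, and the part of cycling cells in the differences of Cdk6, E2f1 or Dnmt1 was not tested.

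Factors that drive transcription of D-type cyclin genes had 0 of 22 past the limma test (5 at an unadjusted p under 0.05), with a median of -0.12. Ctnnb1, which encodes beta-catenin, had a log2 difference of -0.51 (limma adjusted p = 0.119), from 1886 ± 326 to 1322 ± 165 normalised reads. Creb1, which encodes a cAMP-responsive factor, had one of -0.87 (limma adjusted p = 0.141).

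Of the genes for turnover and folding of D-type cyclins, CDK4 and CDK6, 1 of 14 rose and 0 fell, with a median of 0.02. Without adjustment 4 had a limma p under 0.05. Cdc37, the co-chaperone that loads CDK4 and CDK6 onto HSP90, rose from 497 ± 166 to 886 ± 121 normalised reads (log2 difference 0.88, limma adjusted p = 0.0402). Its groups did not overlap, at 401 to 745 and 786 to 1060. Fbxo31, an F-box protein linked to cyclin D1 turnover, had a log2 difference of 1.05 (limma adjusted p = 0.111).

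The other cyclins and cyclin-dependent kinases had 0 of 24 past the limma test (4 at an unadjusted p under 0.05), with a median of -0.05. Ccng1, a known p53 target, had a log2 difference of -0.71 (limma adjusted p = 0.172) and Ccni one of -0.52 (limma adjusted p = 0.221).

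Calls of the 3 pathway genes past the test changed when single libraries were left out. Over all genes 48 to 883 were called in those fits, against 418 with all 8 libraries. E2f1 passed when wild type library 2 or 3 was left out, Dnmt1 when wild type library 2 or the first labelled knockout was left out, Cdc37 when wild type library 2 was, and none of them in the other fits that left out 1 library. Their highest limma adjusted p values in those fits were 0.0926, 0.0780 and 0.121, each without library 3 labelled knockout. With the GC and length trends removed their log2 differences were 1.27, 0.66 and 0.74, and none passed (limma adjusted p = 0.20, 0.199 and 0.152). E2f1 and Dnmt1 did pass with edgeR (adjusted p = 0.0434 and 0.0297) and DESeq2 (adjusted p = 0.00488 and 0.00173). Both also passed with a replicate block (limma adjusted p = 0.0359 and 0.0337). Cdc37 passed with DESeq2 (adjusted p = 0.0129). It did not pass with edgeR (adjusted p = 0.0585) or with a replicate block (limma adjusted p = 0.0612).

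**Figure D5:**
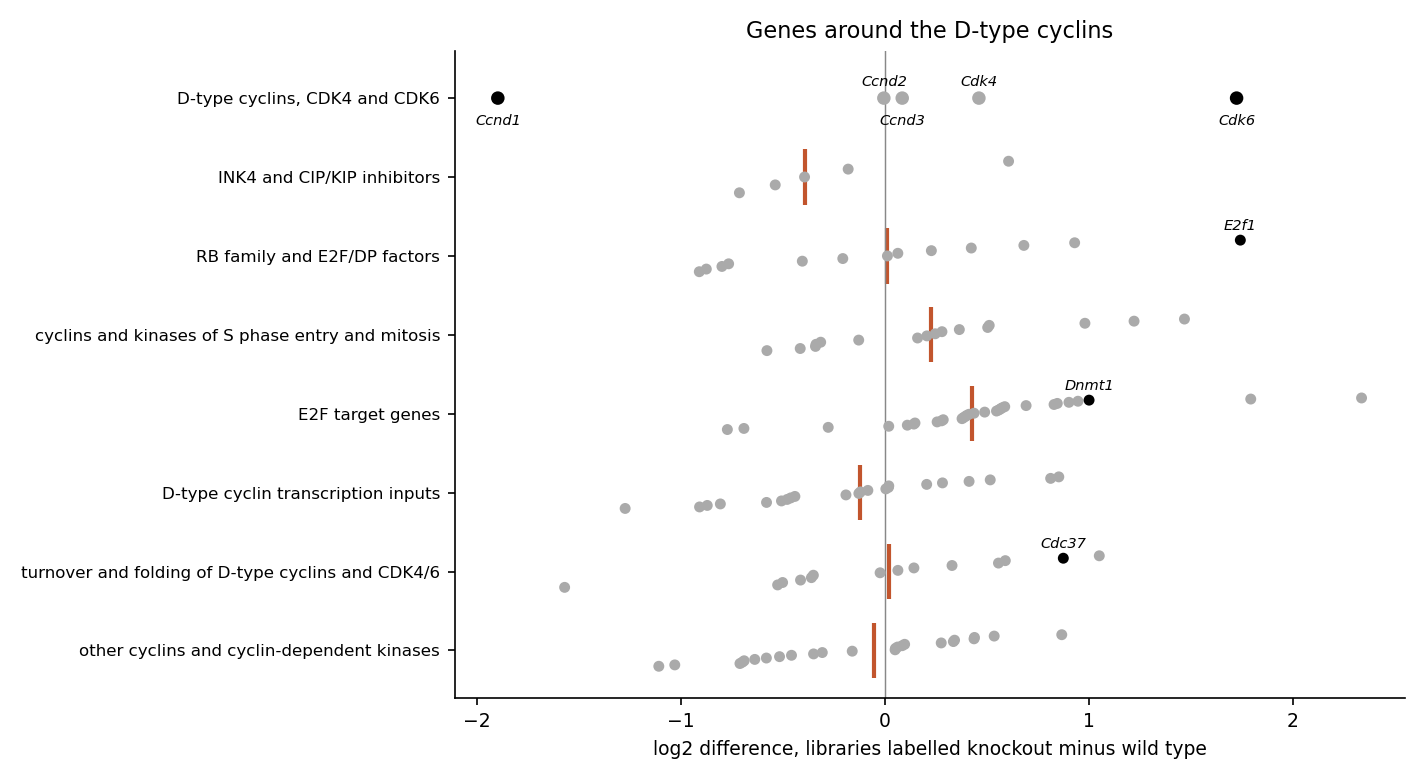
Log2 difference, libraries labelled knockout minus wild type (horizontal axis), of each tested gene of the 7 pathway lists, with the 5 genes of the family in the top line. Vertical bars are list medians, black points passed the limma test, and the E2F target list has the highest median, at 0.43.

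Markers of other cells were read beside these values. The megakaryocyte and platelet list had 4 of 8 genes past the test, all higher in the libraries labelled knockout. Its summed levels were 2845 to 3352 there against 2067 to 2334 normalised reads in wild type. Of the 8 differences 7 were above 0, and their median was 1.85. Of its most abundant genes, Vwf rose from 614 ± 140 to 1076 ± 159 (limma adjusted p = 0.0360), and Mmrn1, the 1 gene below 0, averaged 1042 ± 267 and 740 ± 60.3 (limma adjusted p = 0.222). Of the endothelial list 1 of 5 rose, Tie1, from 176 ± 45.3 to 465 ± 47.8 (limma adjusted p = 0.0125), with the list summing to 344 to 816 and 675 to 787. Of the erythroid list 1 of 4 tested genes passed, Klf1, at 0 to 2.99 in wild type and 24.9 to 85.7 in libraries labelled knockout (limma adjusted p = 0.0341). Klf1 met the filter on low values through the libraries labelled knockout alone. Of the 4 differences 2 were above 0 and 2 below, and the list summed to 240 to 571 and 364 to 542.

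In the B cell list 1 gene was tested, Cd79b, at 551 ± 289 and 234 ± 29.98 (limma adjusted p = 0.0868). The neutrophil list had 1 gene, Prtn3, at 983 to 2908 and 847 to 1445 normalised reads. Lists of progenitors, monocytes, T and NK cells, and stromal cells had 0 genes past the test. Of the 8 genes in each of these lists, only 2, 2, 2 and 1 were tested. The progenitor list summed to 170 to 812 in wild type and 347 to 510 in libraries labelled knockout, and the monocyte list to 1632 to 3166 and 1419 to 2614. The T and NK list averaged 189 and 148, with the range labelled knockout inside the wild type range of 57.8 to 397. The stromal list summed to 0 to 84.7 and 41.7 to 53.96. The part of the megakaryocyte, endothelial, erythroid and B cell markers in the differences of Ccnd1 and Cdk6 was not tested.

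For each of the 5 genes, the genes of most similar pattern were found as those with the smallest root mean square difference of log2 values, centred on each gene's mean, over the 8 libraries. For Ccnd1 these were Pros1 (0.220), Tsc22d2 (0.315) and Cdc73 (0.320). For Cdk6 they included Cchcr1 (0.296) and Adamts10 (0.335). Both sets follow the group difference of the gene they were matched to.

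Ccnd2 was most like Bex1 (0.116), Cbfa2t2 (0.133) and Rab3d (0.138), and Ccnd3 most like Cdc5l (0.0856), Mif (0.0943) and Prdx5 (0.0985). Cdk4 was most like Eno1 (0.119), Stmn1 (0.123) and Slc35a4 (0.125). None of the 5 family members was among the closest 3 of another. The nearest pair within the family was Ccnd3 and Cdk4, at 0.300, and the farthest was Ccnd1 and Cdk6, at 1.98.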

How the data were processed

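Per the labels' protocols, cDNA of sorted HSCs was prepared after a published protocol and turned into Nextera XT libraries, which do not mark strand. The submitters' processing notes name bcl2fastq, HISAT2, featureCounts, Subread, DESeq2 and mm10, while versions and settings are not given in the sources used here. Values in the authors' deposited table are a normalised signal per gene, shown by the values to be reads divided by 1 size factor per library: all values (100%) were whole multiples of 1 step within 0.001, and dividing by the step recovered 2296101 to 4769401 reads per library. For wild type library 3, whose step is 0.997, only the low values show the division, since none of those is whole as deposited. Of 11855 entries 1 had no name (0.000401% of values) and was left out. Names were matched to GENCODE M21 for 11715 of 11853.

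Because the values are not counts, limma 3.58.1 (eBayes with trend and robust) on log2(value + 1) was the main test in place of edgeR, and folds are on that scale, which understates changes of low genes. Tested were the 10989 genes that reached 10 normalised reads in 4 or more libraries (865 were left out), two-sided, with Benjamini-Hochberg adjustment. edgeR 4.0.16 called 341 genes and DESeq2 1.42.0 called 775 on the recovered reads, against 418. Each library is 1 mouse, so n counts mice. Intervals cover counting error only. Scripts were tested on simulated data.

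The members and gene lists were chosen with earlier results of these data known. Named genes are the 5 members, Nupr1 and Trp53, the called genes of each pathway list (with fewer than 2, the 2 of smallest p), the 3 nearest patterns per member (1 of them is not reported here), and the 2 most abundant markers per list, of which some are named. Xist and the genes sharing exons with members, and Tie1 and Klf1 as called genes, were named after their values were seen. Alternatives were other added values, no filter, edgeR, DESeq2, a replicate block, removal of GC and length trends, other lengths, each genotype alone, and leaving out each library.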

Additional observations from a re-analysis of the deposited data

Results flagged for a closer look

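Of 18 groups of 4 values (5 genes and 4 paralog ratios, in each genotype) examined for a single distant value, 1 had one, where chance flags about 1 in 20 groups. The log2 ratio of Cdk4 to Cdk6 per length was 4.63 in wild type library 2 and 6.00 to 6.20 in the other 3 wild type libraries, so that library lay far below its group. It is the library that stood apart on the first principal component over all genes, and its Cdk6 level of 339 normalised reads was the highest of the wild type group.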

How the results depend on the processing

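Leaving out 1 library moved the number of genes called, 418, to between 48 (without library 2 labelled knockout) and 883 (without wild type library 2), the members called to 0 to 2, and the pathway genes called to 0 to 12. Ccnd1 was not called without wild type libraries 1, 3 or 4 (log2 difference -1.81, -1.92 and -1.91) or without libraries 2 or 3 labelled knockout (-1.61 and -1.84). Cdk6 was called in that set only without wild type library 2. DESeq2 gave 775 genes and 6 pathway genes, and edgeR gave 1 member, Ccnd1. Removing GC and length trends left 31 genes (9 higher and 22 lower, against 185 and 233), 1 member (Ccnd1, at -2.04) and 0 pathway genes, and moved Ccnd3 to -0.38. Replicate numbers did not pair the mice (correlations of deviations -0.0566 to 0.0148), and the fit with the replicate block gave 277 genes and 1 member, Ccnd1. The cause of these changes was not tested. The fits without 1 library also had fewer samples.

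With 4 mice of 1 genotype the smallest possible p of a paralog ratio is 0.125 (adjusted 0.167), and all ratios but Ccnd2 to Ccnd3 reached it. In wild type and in libraries labelled knockout the mean log2 ratios were 2.31 and 4.21 for Ccnd2 to Ccnd1, 2.15 and 4.13 for Ccnd3 to Ccnd1, and 5.72 and 4.46 for Cdk4 to Cdk6. The ratio of Ccnd2 to Ccnd3 turned to -0.49 with longest-transcript length, and ran from -2.68e-05 (without wild type library 1) to 0.19 without each library in turn. The log2 differences of Ccnd1, Cdk4 and Cdk6 kept their sign under all 15 alternatives. Ccnd1 rested on 23 to 342 reads per library, where counting alone gives a coefficient of variation of 6.60% in wild type and 15.2% in libraries labelled knockout.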
